A study of Mus musculus with 6 samples.

Results

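The Hedgehog pathway genes Shh, Ihh, Dhh, Ptch1, Smo, Gli1, Gli2, Gli3 and Sufu were examined in DR4 mouse embryonic fibroblasts, through every probe set that the platform annotation gives to 1 of these symbols alone. A probe set is a group of short oligonucleotides that measures a transcript. The 9 genes had 20 probe sets of the 45137 measured, 14 of 22626 on the Affymetrix array MOE430A and 6 of 22511 on its companion MOE430B. The cells were fibroblasts of day15 embryos grown on 0.1% gelatin in D-MEM with 15% serum and LIF, and served as the feeder control for J1, R1 and V6.5, lines of embryonic stem cells that were not analysed here. All 6 arrays shared the name DR4, this cell type and this culture. Apart from the name DR4 the labels name no genotype, and they name no sex. They name no treatment apart from the medium, which also held penicillin, streptomycin and beta-mercaptoethanol. Each array type was hybridized with RNA of 3 replicates. As the labels write it, 12x10e6 cells were used for replicate 1 and 3x10e6 for each of the others, and the RNA stood at 2.4 ug/ul in replicate 1 and at 3.0 ug/ul in replicates 2 and 3. The labels do not describe the replicates as separate cultures, so a p-value here is about how these samples varied, perhaps for technical reasons alone, and with 3 arrays of a type each value is known only roughly.

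In this pathway a secreted ligand, Shh, Ihh or Dhh, binds the receptor Ptch1 and so lifts the block that Ptch1 places on the membrane protein Smo. Smo then gathers in the primary cilium and frees the Gli transcription factors from Sufu, the protein that holds them in the cytoplasm. Without ligand, Gli3 is cut into a repressor, and with ligand Gli1 and Ptch1 are themselves transcribed more, so both are commonly used as readouts of the pathway. Embryonic fibroblasts carry primary cilia and are widely used to assay the response to added ligand.

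Signals are MAS5 intensities, and each gene was set against a floor, the median signal of its own array, which in replicates 1, 2 and 3 was 689, 685 and 734 for MOE430A. For MOE430B it was 849, 917 and 907. A signal above the floor on all 3 arrays of a type is called above the floor below. Since each probe set binds its target with a brightness of its own, 1 transcript cannot be ranked above another from these signals. The fibroblast markers were in place, with 8 of 8 above the floor (Col1a1 at 106848 ± 26287 and Twist1 at 2658 ± 304, SD, n = 3 arrays), and 0 of 5 pluripotent stem cell and 0 of 5 neural tube markers were. Of the other lists, chosen here to look for further cell types, 2 of 5 cartilage, 1 of 2 Schwann cell, 2 of 5 epithelial, 1 of 4 endothelial and 1 of 3 gonad markers were above it, each a smaller share than the 54.7% of all genes. The cartilage markers Col2a1 (4399.8 ± 810.3) and Col10a1 (1294 ± 282), the neural crest factor Sox10 (1493 ± 264), the keratin Krt8 (1502 ± 391) the endothelial receptor Kdr (1407 ± 199.9) and the steroid transport gene Star (1022 ± 162), named after their values were seen, were among them, and Epcam was so by 1 of its 2 probe sets. Acan, Matn1, Pth1r, Egr2, Krt5, Krt14, Cdh1, Pecam1, Cdh5, Tek, Amh and Nr5a1 of the same lists were not. The part of such cells in the Hedgehog signals was not tested. In a bulk sample, fewer cells of a type and less RNA per cell cannot be told apart.

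Smo, Gli3 and Sufu lay above the floor by at least 1 probe set, which makes 3 of the 9 genes. Over all genes with 1 symbol 54.7% did so. Counted by probe set, 3 of 14 on MOE430A and 3 of 6 on MOE430B were above the floor, where 42.4% of all MOE430A and 37.2% of all MOE430B probe sets were. Shh, Ihh, Dhh, Ptch1, Gli1 and Gli2 had no probe set above the floor on all 3 arrays of a type. A further 5 MOE430A and 2 MOE430B member probe sets passed the floor on 1 or 2 arrays only, as 15.1% and 25.6% of all did. Against a fixed floor of 200 the count was 8 of 9 genes, all but Gli1, where 79.7% of all genes passed.

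**Figure D1:**
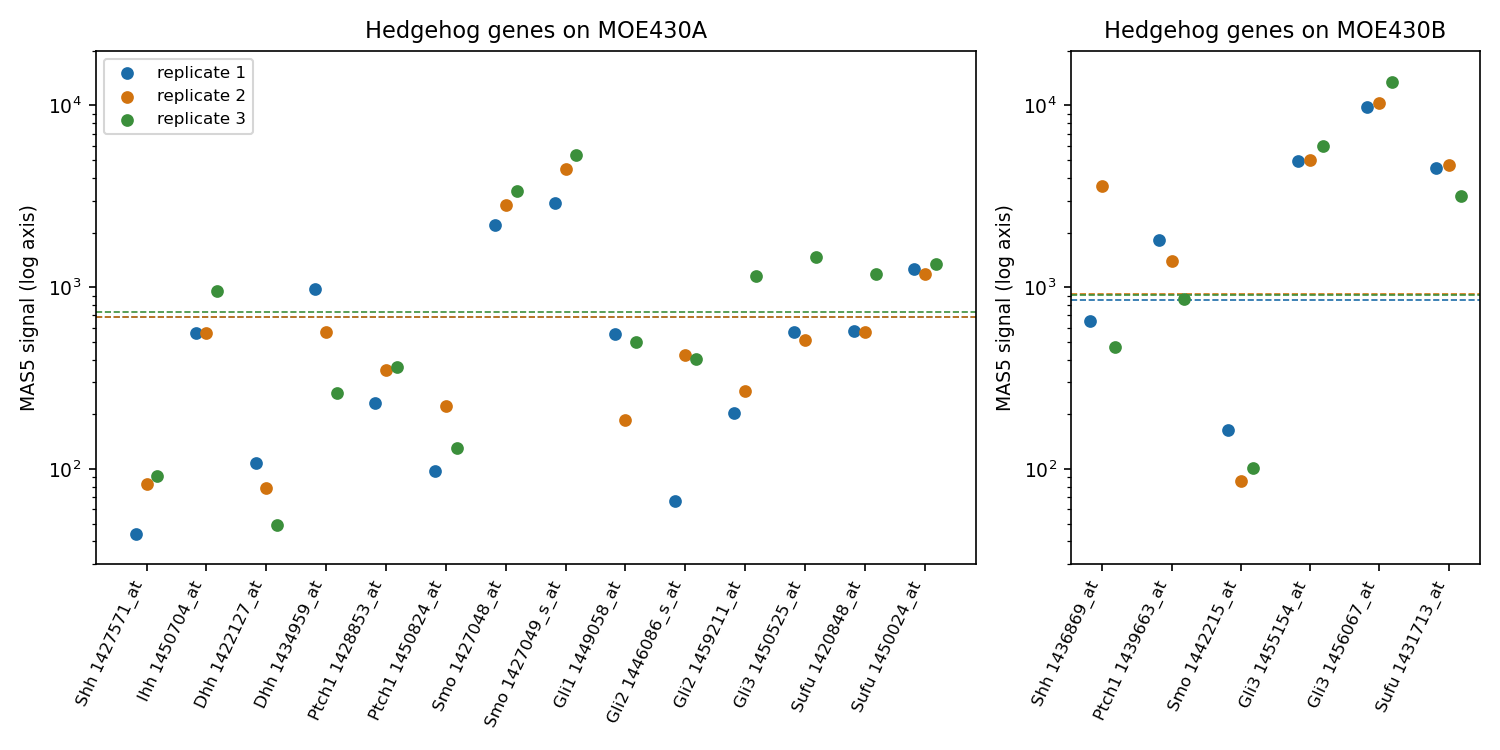
MAS5 signal on a log axis (points, 1 per replicate) of the 14 Hedgehog probe sets on MOE430A and the 6 on MOE430B, with the median of each array as a dashed line, some of which overlap. The Smo probe sets on MOE430A and the Gli3 probe sets on MOE430B lie above the lines in every replicate, and both Ptch1 probe sets on MOE430A and the Gli1 probe set lie below them.

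The stretches before the gene starts are shown for Smo, Gli3 and Sufu, the genes above the floor, and for the ligand gene Ihh, which was not, to let their base composition be compared. The sequences are RefSeq windows of build GRCm38.p6, the 250 bases before the annotated start, written 5′ to 3′ on the gene's strand with each CpG dinucleotide in capitals. They lie at chr6:29735247-29735496 on the plus strand for Smo, chr13:15463473-15463722 on the plus strand for Gli3, chr19:46396646-46396895 on the plus strand for Sufu and chr1:74951673-74951922 on the minus strand for Ihh.
Smo: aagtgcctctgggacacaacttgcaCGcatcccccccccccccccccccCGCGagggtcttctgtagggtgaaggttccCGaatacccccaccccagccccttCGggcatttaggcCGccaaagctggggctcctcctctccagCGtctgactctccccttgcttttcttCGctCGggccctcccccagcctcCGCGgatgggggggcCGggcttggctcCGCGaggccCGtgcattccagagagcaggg
Gli3: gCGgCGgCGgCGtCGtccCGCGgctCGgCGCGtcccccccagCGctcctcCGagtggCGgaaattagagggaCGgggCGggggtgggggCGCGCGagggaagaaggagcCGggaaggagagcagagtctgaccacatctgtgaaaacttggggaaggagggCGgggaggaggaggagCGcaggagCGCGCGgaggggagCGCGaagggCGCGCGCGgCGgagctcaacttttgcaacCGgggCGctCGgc
Sufu: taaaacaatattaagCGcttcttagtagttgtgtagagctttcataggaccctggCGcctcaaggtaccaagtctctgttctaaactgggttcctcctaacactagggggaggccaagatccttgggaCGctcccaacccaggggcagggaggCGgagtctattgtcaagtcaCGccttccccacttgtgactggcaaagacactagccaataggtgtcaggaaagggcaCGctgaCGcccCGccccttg
Ihh: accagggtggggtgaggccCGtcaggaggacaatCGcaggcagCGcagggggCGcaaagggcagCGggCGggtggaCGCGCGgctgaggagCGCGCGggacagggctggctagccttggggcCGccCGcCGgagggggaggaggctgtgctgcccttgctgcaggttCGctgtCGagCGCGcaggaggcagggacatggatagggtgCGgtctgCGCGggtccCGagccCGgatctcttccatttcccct

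These windows held 15 CpG dinucleotides for Smo, 34 for Gli3, 8 for Sufu and 24 for Ihh. The median over the 32851 windows of this length in the RefSeq table was 6. Ihh, under the floor on 2 of 3 arrays, therefore had more CpG before its start than Smo or Sufu. Windows were found for 7 of the 9 genes, and Dhh had 9 CpG, Gli2 22 and Ptch1 41, so all 7 lay above the median window. The letters GACCACCC, the core that Gli proteins are known to bind, or GGGTGGTC on the other strand, were in 0.703% of all windows and in 0 of these 7. That says only that these letters are not in these 250 bases.

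Among the ligands, Shh, the best studied, which patterns the neural tube and limb, had signals of 43.8, 82.5 and 92.2 in replicates 1, 2 and 3 on its MOE430A probe set 1427571_at, below the floor on every array. Its MOE430B probe set 1436869_at read 653, 3596 and 469, so replicate 2 alone was above the floor, 7.66-fold over the lowest replicate. The MOE430A probe set showed no such peak, since replicates 2 and 3 lay close together there. Over all MOE430B probe sets, 16.3% had a highest signal more than 5-fold over the lowest, and on MOE430A 10.6% did. Ihh, the ligand of growing cartilage, read 558, 558 and 955 on 1450704_at, with replicate 3 above the floor and the other two under it.

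Dhh, the ligand known from testis and peripheral nerve, had 2 probe sets on MOE430A. On 1422127_at its signals were 108, 78.4 and 49.5, all under the floor. On 1434959_at they were 981, 567 and 263, with replicate 1 alone above it. Both probe sets were highest in replicate 1 and lowest in replicate 3, by 2.18-fold and 3.73-fold. Of the gonad markers, Amh, known from the Sertoli cells of the testis, was under the floor on all 3 arrays. Nr5a1 was not above it either, but Star was by 1 of its 3 probe sets (1143, 1086 and 837). Of the Schwann cell markers, Sox10 was above the floor by 1 of its 3 probe sets (1452, 1252 and 1775) and Egr2 was not.

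Ptch1, receptor of the ligands and a target of the pathway, gave different readings on the array types. On MOE430A its signals were 231, 350.3 and 363 on 1428853_at and 97.4, 222 and 131 on 1450824_at, under the floor on every array. On MOE430B the probe set 1439663_at read 1826, 1390.4 and 862, above the floor in replicates 1 and 2 and just under it in replicate 3. This is the probe set nearest to the threshold from below, and without replicate 3 Ptch1 counted as above the floor, which made 4 genes in place of 3. Its MOE430B signals were also below the brightest control for a bacterial tryptophan gene, which read 1989, 2348 and 2229 on these arrays. The sources used here do not say if RNA of that gene was spiked in.

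Smo, the membrane protein that passes the signal on, lay above the floor on MOE430A. Its signals were 2215, 2832 and 3406 on 1427048_at and 2926, 4473 and 5311 on 1427049_s_at, both on MOE430A, from 3.21 to 7.23 times the floor. These 2 probe sets were designed on 1 sequence record, and the order of the replicates was the same on both, lowest in replicate 1 and highest in replicate 3. Another Smo probe set, 1442215_at on MOE430B, read only 165, 86 and 102, far under the floor. Probe sets of 1 gene therefore disagreed on whether it lay above the floor. The mouse Smo transcript that each one matches was not determined here.

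Gli1, the activator whose own transcription follows the pathway, had signals of 551, 187 and 501 on 1449058_at. All 3 arrays were under the floor, and replicate 2 was lower than the others by 2.94-fold from highest to lowest. It was the single member gene that missed even a floor of 200, through replicate 2. Gli2, the main activator in the mouse, read 66.5, 427 and 405 on 1446086_s_at, under the floor throughout with replicate 1 lowest. On 1459211_at it read 203, 269.8 and 1159.7, with replicate 3 alone above the floor. Its 2 probe sets, designed on the same sequence record, differed in replicate 2, which was near replicate 3 on the first and near replicate 1 on the second.

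Gli3, the main repressor of the family, lay above the floor on MOE430B alone. There it read 4928, 4994 and 5966 on 1455154_at and 9796, 10276 and 13395 on 1456067_at, from 5.45 to 14.8 times the floor. The 3 replicates lay within 1.21-fold and 1.37-fold of each other, and replicate 3 was highest on both. Its MOE430A probe set 1450525_at, designed on a RefSeq mRNA, read 567, 513 and 1465, with replicate 3 above the floor and the others under it. Replicate 3 was thus highest on all 3 Gli3 probe sets.

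Sufu, the inhibitor that binds the Gli proteins, lay above the floor on both array types. Its signals were 1259.7, 1179 and 1346 on 1450024_at of MOE430A and 4503, 4723 and 3161 on 1431713_at of MOE430B. The first was the steadiest of the member probe sets (SD 0.09 on the log2 scale). It is also the probe set nearest to the threshold from above, at 1.72 to 1.83 times the floor. A second MOE430A probe set designed on the same record, 1420848_at, read 575, 565 and 1191, so that replicate 3 alone was above the floor.

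A pair of array types scaled apart makes an MOE430B signal hard to read beside an MOE430A one, and 100 mouse probe sets present on both array types gave the size of that gap. In replicates 1, 2 and 3 their MOE430B signals had a median of 4.15, 3.46 and 3.79 times their MOE430A signals. The ratio of a single probe set varied, with an SD of 0.23, 0.28 and 0.32 on the log2 scale. Of the 100, 99, 100 and 98 were above the MOE430A floor in replicates 1, 2 and 3. Whether the ratios hold for dimmer signals was not tested. Carried over by these ratios, the MOE430A floor stood at 2863, 2367 and 2781 on MOE430B, well over the MOE430B median. Divided by them, the signals of the Gli3 probe set 1455154_at became 1186, 1445 and 1575, and those of 1456067_at 2358, 2973 and 3536, all above the MOE430A floor. Sufu on MOE430B became 1084, 1367 and 834 and stayed above it too. In replicate 3, where that floor was 734, the margin was smaller than the SD of the ratio. Ptch1 became 439, 402 and 228, under the floor in every replicate, as its MOE430A probe sets were. That reading holds only if the ratios apply to signals this dim. Shh became 157, 1040.4 and 124, still above the floor in replicate 2. With this floor, chosen after the data were seen, the members above it were again Smo, Gli3 and Sufu, where 42.3% of all genes passed.

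**Figure D2:**
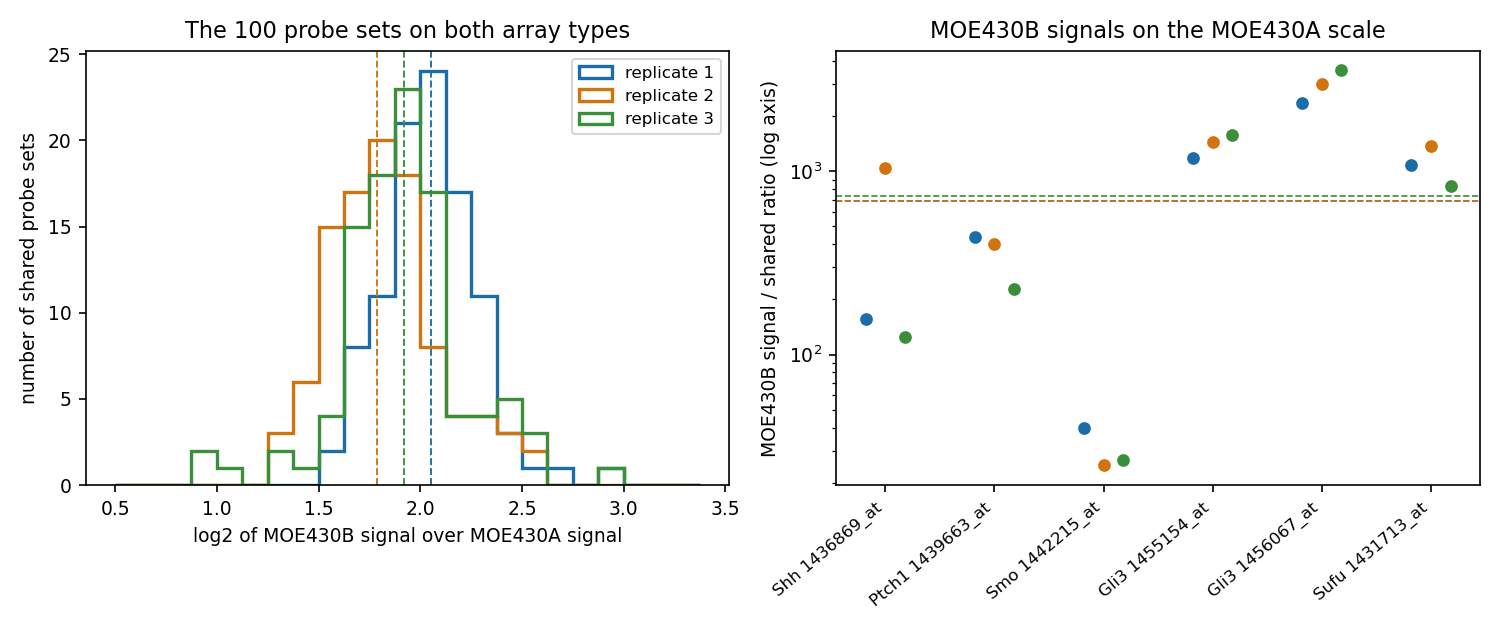
Left, number of the 100 shared probe sets by the log2 ratio of their MOE430B to their MOE430A signal, with each replicate's median as a dashed line (4.15, 3.46 and 3.79 as ratios). Right, MOE430B signals of the 6 Hedgehog probe sets divided by these ratios (log axis), with the MOE430A medians as dashed lines: Gli3 and Sufu lie above them in every replicate and Ptch1 and Smo below.

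The spread between replicates sets how far these levels can be read. For the 3 MOE430A member probe sets above the floor, the SD on the log2 scale was 0.09 to 0.44, where the median over all 9600 such probe sets was 0.24. For the 3 on MOE430B it was 0.15 to 0.32, where the median over 8384 was 0.28. Member probe sets not above the floor ranged from 0.34 for Ptch1 on 1428853_at to 1.38 for Gli2 on 1446086_s_at and 1.56 for Shh on MOE430B. A probe set with 1 low array is not counted above the floor, so this wider range is in part set by the split. Replicate 3 gave the highest signal on 9 of the 14 MOE430A member probe sets, and on 38% of all MOE430A probe sets. Replicate 1 was highest on 3 and replicate 2 on 2 of these 14 (32.3% and 29.8% of all), and replicate 1 was lowest on 7 (34.9% of all). On MOE430B each replicate was highest on 2 of the 6 member probe sets, against 33.1%, 34% and 32.9% of all for replicates 1, 2 and 3, and replicate 1 was lowest on 2 (35.3% of all). The MOE430A array of replicate 3 differed in scan day and fluidics station from those of replicates 1 and 2. The part of day and station in these values was not tested.

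The labels set replicate 1 apart by cell number and RNA concentration, and it was compared with replicates 2 and 3 by limma on log2(signal + 16), within each array type. Of the members, 5 MOE430A and 5 MOE430B probe sets had a mean log2 signal above the floor and were tested, and the other 10 were not. As that mean is over 3 arrays, Shh 1436869_at, Gli3 1450525_at and Sufu 1420848_at entered by 1 bright array, of replicate 2 or 3. Their differences below are therefore in part set by how they entered. None of the 10 tested was called at an adjusted p of 0.05, and none had an unadjusted p under 0.05. Over all tested probe sets, limma called 0.705% on MOE430A and 0% on MOE430B, and 8.12% and 7.23% had an unadjusted p under 0.05. A single array stood against 2 in this fit, which left 1 residual degree of freedom and takes replicate 1 to be as variable as the rest.

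Smo came nearest on MOE430A. On 1427049_s_at replicate 1 read 2926 against 4473 and 5311, a log2 difference of -0.73 (SE 0.37, limma adjusted p = 0.639, unadjusted p = 0.0566). On 1427048_at the difference was -0.48 (SE 0.37, limma adjusted p = 0.841). Replicate 1 was below both other replicates on both probe sets. Between replicates 1 and 2, whose arrays shared a scan day and a station, the differences were -0.61 and -0.35. Gli3 on MOE430B differed by -0.15 on 1455154_at (SE 0.38) and -0.26 on 1456067_at (SE 0.39), with limma adjusted p of 0.953 and 0.921. The MOE430A probe set of Gli3, 1450525_at, differed by -0.60 (SE 0.44, limma adjusted p = 0.824). Sufu differed by 0.00 on 1450024_at (SE 0.37) and by -0.50 on 1420848_at (SE 0.41), both on MOE430A, and by 0.22 on 1431713_at of MOE430B (SE 0.43), with limma adjusted p from 0.869 to 1.0. Shh on MOE430B differed by -0.98 (SE 1.24, limma adjusted p = 0.906), with replicate 1 between the other replicates. Ptch1 on its 1 tested probe set, on MOE430B, was higher in replicate 1 than in both others, by 0.73 (SE 0.46, limma adjusted p = 0.824), while its MOE430A probe sets, too dim to test, were lowest in replicate 1. The MOE430B array of replicate 1 had a fluidics station of its own, and the station and the replicate cannot be told apart.

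**Figure D3:**
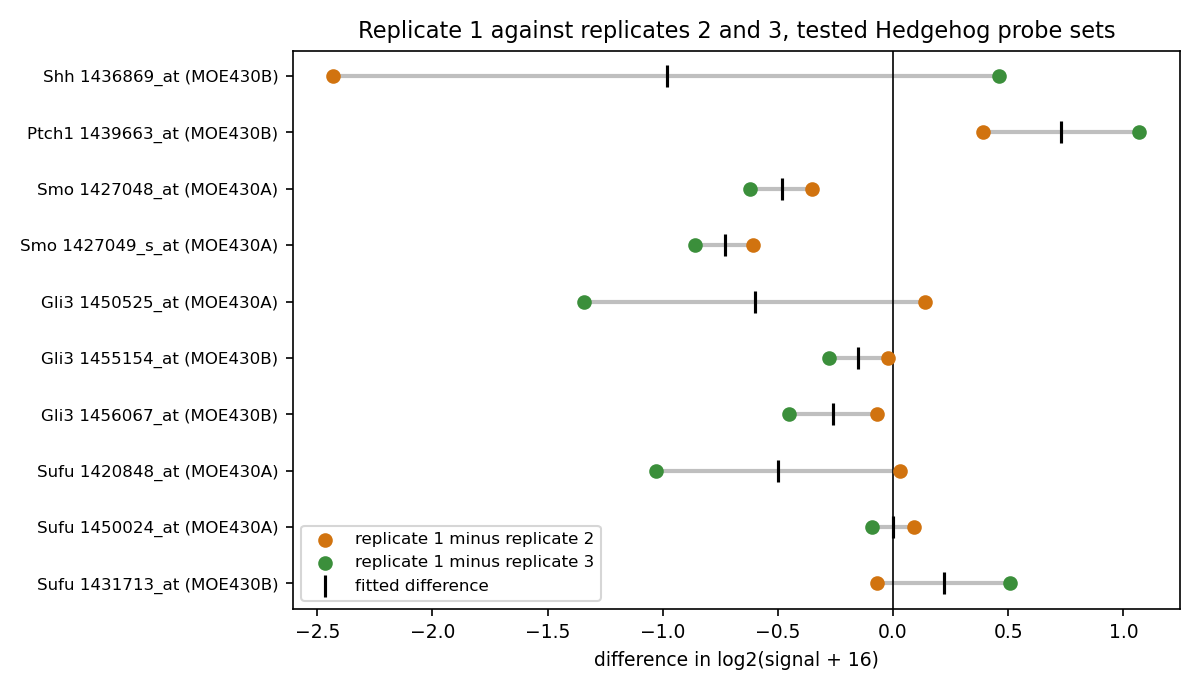
Difference in log2(signal + 16) of replicate 1 from replicate 2 and from replicate 3 (points) and the fitted difference (bar) for the 10 tested Hedgehog probe sets. Both Smo probe sets lie left of 0 against either replicate, at fitted values of -0.73 and -0.48, and Ptch1 lies right of 0, while the points of Shh, Sufu and Gli3 1450525_at fall on both sides.

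Around the members, 70 further genes of the pathway in 4 lists were measured, and 47 of them (67.1%) lay above the floor, where 54.7% of all genes did. A gene with more probe sets passes the floor more easily, and these shares were not adjusted for that. In the list of ligand release, co-receptors and decoys 7 of 11 were above it. Gas1, a surface protein that helps Ptch1 bind Shh, read 8134, 22208 and 20893 on 1416855_at. Boc, a co-receptor of the immunoglobulin family, read 1733, 2135 and 3162. Its relative Cdon, chosen after its values were seen, read 93.7, 41.2 and 122 on MOE430A but 5788, 9661 and 10519 on MOE430B, so this co-receptor too was above the floor by 1 probe set and far under it by another. Disp1, which releases ligand from the cells that make it, had 5629.7, 2689 and 4640.4 on MOE430B. The decoy receptor Hhip, which is also a target of the pathway, had 4 probe sets, each under the floor on every array, with 177, 379.6 and 269 on 1421426_at. Scube1 (213, 242 and 242) and Scube2 (112, 72 and 35.8), both on MOE430A, were under it on every array too. Scube3 (616, 975 and 988 on MOE430B) was under it in replicate 1 alone.

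Gpc3, a glypican that binds Hedgehog ligands and restrains signalling in the mouse, was the gene of these lists that limma called. Its signals were 1621, 4820.4 and 7148, all above the floor, and replicate 1 was 3.6-fold lower in the fit (log2 difference -1.85, SE 0.38, limma adjusted p = 0.015). It was the single call among the 5 MOE430A probe sets tested in this list, and the call was lost with quantile normalization (limma adjusted p = 0.339) and without the filter on dim probe sets (limma adjusted p = 0.781). Gas1 was lower in replicate 1 on both of its tested probe sets without passing, with a log2 difference of -1.40 on 1416855_at (SE 0.37, limma adjusted p = 0.0757) and of -1.21 on 1448494_at (SE 0.37, limma adjusted p = 0.169). Between the arrays that shared a scan day the differences were -1.56 for Gpc3 and -1.45 and -1.12 for Gas1. The 5 MOE430A probe sets tested in this list stand for Gpc3, Gas1 and Boc alone, and their median difference was -1.21, where that over all 11070 tested was -0.011. On MOE430B the 4 tested had a median of -0.03, where that over all 10602 was 0.032. The ratio of the 3′ to the 5′ signal of Gapdh, a sign of RNA quality, was 1.27, 1.16 and 0.85 in replicates 1, 2 and 3 on MOE430A, and that of actin was 1.05, 1.17 and 1.09. Replicate 1 was highest by the first and lowest by the second, and the part of RNA quality in these differences was not tested.

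Of the cytoplasmic regulators of Smo and Gli, 14 of 20 were above the floor, where 54.7% of all genes were. Genes for subunits of the kinases that mark Gli proteins for processing were among them. The casein kinase genes Csnk1d and Csnk1a1 had mean signals of 15707 ± 8172 and 9830.2 ± 1063 (SD, n = 3). The Csnk1d value is of the brightest of its 5 probe sets, which read 24946, 9427 and 12748, highest in replicate 1. Prkar1a, gene of a regulatory subunit of protein kinase A, had 11928 ± 2206. Evc2, a ciliary partner of Smo, had 6462 ± 504 on MOE430B. Not above the floor on every array were Gpr161, a ciliary receptor that keeps the pathway low (801, 2410.4 and 1340 on MOE430B), Stk36 (1516, 1728 and 456) and Kif7, a kinesin of the cilium tip (201, 1077 and 1763). Each of these 3 was under the floor in a single replicate, replicate 1 for Gpr161 and Kif7 and replicate 3 for Stk36. Evc (646, 1165 and 1054), Arrb1 (348, 645 and 613) and Arrb2 (727, 288 and 104), all on MOE430A, were not above it on every array either.

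Of the primary cilium genes, 17 of 22 were above the floor, where 54.7% of all genes were. On MOE430B the transport subunit gene Ift52 had 5600.2 ± 116, the retrograde motor gene Dync2h1 5296 ± 125 and the transition zone gene Tctn1 3013 ± 439. Tulp3, which brings receptors into the cilium, had 2966 ± 408 on MOE430A. The transport genes Ift20 (551, 1126 and 1207), Ift88 (673, 985 and 844) and Ift172 (658, 875 and 815) were each under the floor in replicate 1 alone. Ofd1 (176, 99.9 and 76.4) and Cep290 (56.9, 3.48 and 65.3), both on MOE430A, were far under it on every array. When the floor was each array's 75th percentile 6 of the 22 passed, and 30.4% of all genes did.

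Of the genes known as Gli targets in some tissue, 9 of 18 were above the floor, where 54.7% of all genes were. The cyclin genes Ccnd2 and Ccnd1 had signals of 34426 ± 9769 and 30294 ± 6983, the BMP antagonist gene Grem1 10645 ± 2524 and the vesicle transport gene Rab34 10516 ± 1271. The cyclin genes are also controlled by many other growth signals. The Notch ligand gene Jag2 (934, 1007 and 716) and the floor plate factor gene Foxa2 (873, 565 and 468) were under the floor on 1 and 2 arrays. Hhip, with Gli1 and Ptch1 among the targets most often used to read the pathway, was under it on all arrays by each of its probe sets, and on MOE430A so were Gli1 and both probe sets of Ptch1.

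**Figure D4:**
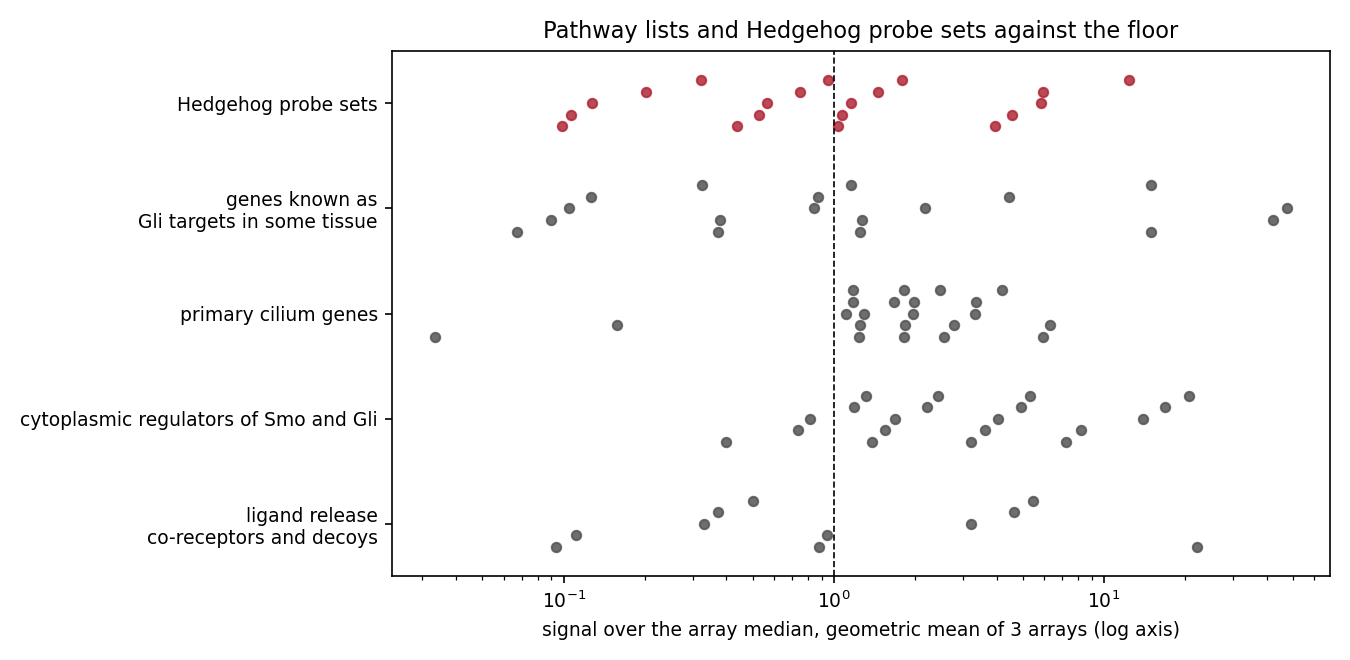
Signal over the array median, as the geometric mean of 3 arrays on a log axis, for each gene of the 4 pathway lists by 1 probe set (grey points) and for the 20 Hedgehog probe sets (red points). The dashed line marks the floor, which by any of their probe sets 17 of 22 cilium genes and 9 of 18 genes known as Gli targets passed on all 3 arrays.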

How the data were processed

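The deposited values are linear signal intensities, 1 per probe set and array, made with MAS5 per the submitters' processing notes. No version of it, and no background or scaling step, is given in the sources used here. Each array's mean without the top and bottom 2% of probe sets was 1500.5 on MOE430A and 1500.2 on MOE430B, so each type had been scaled to 1 target. Detection calls were not used. Gene symbols are those of the platform annotation, possibly outdated, brought up to date by gene identifier against RefSeq (20351 of 20380 and 14486 of 14661 singly named probe sets matched). Probe sets with several symbols (691 and 245) are unnamed, and listed pathway genes without a named probe set here are left out of the counts. Arrays carry no genome build. Differences were tested with limma 3.58.1 (R 4.3.3), lmFit and eBayes, on probe sets whose mean log2(signal + 16) exceeded the mean log2 floor, with Benjamini-Hochberg adjustment over all of them (11070 and 10602). The procedure was tested on simulated data drawn from its own fitted model, which cannot show if that model holds for these arrays. This scale understates differences of dim genes. The array types were never tested together. Named genes are all members and, of each list, those called, the 4 genes above the floor with the highest mean and up to 3 not above it. For this a gene counted by its brightest MOE430A probe set, or a MOE430B one where it had none on MOE430A, so a gene brighter on MOE430B could be passed over. In the co-receptor, regulator and cilium lists the other genes not above the floor were added after their values were seen. A floor for MOE430B carried over from MOE430A was added after seeing the data. Members and lists were chosen with earlier results of these data known.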

Additional observations from a re-analysis of the deposited data

How the results depend on the processing

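Smo, Gli3 and Sufu were the member genes above the floor with the array median, with the 75th percentile, with the highest tryptophan control and with only probe sets without a suffix. A fixed signal of 200 gave 14 probe sets and 8 genes. Leaving out 1 replicate gave 6 to 7 probe sets and 3 to 4 genes. With the 75th percentile the primary cilium list had 6 genes above the floor, while the share of all genes went from 54.7% to 30.4%, and the other pathway lists stayed within 1.5 times their counts under every floor tried. The MOE430A count of 78 calls over all probe sets became 0 with no filter on dim probe sets, 0 with quantile normalization and 165 with an eBayes trend (adjusted p of Gpc3 0.781, 0.339 and 6.94e-05). The causes were not tested. Both Gas1 probe sets passed with the trend (adjusted p = 0.00859 and 0.0279). No member was called under any setting (lowest adjusted p 0.436), and 0 of all MOE430B probe sets were, where 766 had an unadjusted p under 0.05. The median spread of the 6 member probe sets above the floor was 0.28 on the log2 scale, 0.06 to 0.34 without 1 replicate and lowest without replicate 3. No paired analysis was possible because no test was run between groups: each array type holds a single group, and a block by replicate would take up the 1 difference tested within it. Signals under or near the floor, and probe sets that disagree, limit what can be said of Shh, Ihh, Dhh, Ptch1, Gli1 and Gli2.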
